A study of Mus musculus with 8 samples.

Results

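The genes described here encode the subunits and activators of the proteasome, in blood stem and progenitor cells with and without Traf6. They were found by symbol among the genes of 8 library tables: every gene whose symbol starts with Psma, Psmb, Psmc, Psmd or Psme followed by a digit, apart from the immunoproteasome genes Psmb8, Psmb9 and Psmb10. This gave 43 of 24112 genes. They fall into a core of 16 genes (8 of the alpha ring and 8 of the beta ring), a regulatory particle of 17 (6 ATPases and 3 other genes of its base, and 8 of its lid), 3 chaperones that help to assemble that particle, and 5 activators. The other 2, Psmc3ip and Psme3ip1, match the rule by name alone. Psmc3ip encodes a partner protein in meiotic recombination and Psme3ip1 a protein that binds an activator, and neither is a subunit.

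The libraries came from LSK cells, which lack lineage markers and carry Sca1 and Kit, a sorted fraction of bone marrow that includes blood stem cells and early progenitors. The cells were sorted from C57BL/6 mice that had received donor marrow, and all donor marrow carried Vav-Cre, a recombinase driven by a promoter active in blood cells. In 4 libraries the donor marrow was otherwise wild type (WT1 to WT4), and in the other 4 it had also lost Traf6 (Traf6-/-;Vav-Cre+, KO1 to KO4). The labels do not give the age of the mice, whether host cells remained in the sorted fraction, or whether each library is another mouse. A p-value here therefore reflects only how much these libraries scatter, which could be technical. The study asked whether TRAF6, an adaptor and ubiquitin ligase of innate immune signalling, keeps NF-κB active at the low level that blood stem cells need.

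The proteasome degrades proteins that carry ubiquitin chains. Its core is a barrel of 4 stacked rings: the outer alpha rings gate the entry, and the inner beta rings hold the proteolytic sites, which lie on the subunits encoded by Psmb5, Psmb6 and Psmb7. The regulatory particle caps the barrel; its base of ATPases unfolds substrates and its lid removes ubiquitin. The activators (PA28 and PA200) open the barrel in place of the regulatory particle and do not need ubiquitin. NF-κB signalling depends on this machine, because the inhibitor IκBα is removed by it and the NF-κB precursor p105 is processed by it. Immune cells can exchange the 3 catalytic beta subunits for those of the immunoproteasome.

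Values are RPKM, read numbers scaled to gene length and library size, a unit inferred from the values since no source used here names it. Traf6 checked the labels: it was at 14.9, 3.52, 9.40 and 7.10 RPKM in WT1 to WT4 and at 0.613, 0.818, 0 and 0.00721 RPKM in KO1 to KO4, so the groups did not overlap (exact 2-sided permutation test, p = 0.0286, the minimum over 70 assignments). Its log2 difference, KO minus WT on the scale log2(RPKM + 1), which understates the change of low genes, was -2.75 ± 0.53 (SE, n = 4 per group; limma adjusted p = 0.341 over 11276 genes). Approximate depth, inferred from the steps between low values, was between 19.3 and 24.8 megareads in WT and between 22.5 and 30.7 megareads in KO. Genes listed above 0 numbered 11169 to 12970 in WT and 9055 to 13689 in KO, with the lowest numbers in KO3, KO4 and WT2. A value of 0 is therefore given as listed at 0. KO3 and KO4 were run in sequencing lane 5 and the other 6 libraries in lane 4. Of the genes of the LSK gate, Kit was at 78.4 ± 4.24 RPKM in WT libraries and 74.8 ± 27.3 in KO (SD, n = 4) and Ly6a, which encodes Sca1, at 10.1 ± 2.07 and 8.84 ± 2.16. Of 6 B cell genes Cd79a, Ms4a1 and Pax5 were listed at 0 in all libraries and Cd79b was at 4.78 to 16.3 RPKM; the sum of the list was 5.71 to 16.5 in WT and 6.65 to 16.4 in KO. Of 6 T cell genes Cd3g was listed at 0 in all libraries, and Lck was at 19.1 to 35.2 RPKM in WT and 3.04 to 22.6 in KO; the sum was 19.2 to 39.4 and 3.05 to 23.3.

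All 43 genes had at least 1 RPKM in at least 4 libraries and were tested, and 42 were listed above 0 in every library; the exception was Psma8. Without Psma8 and Psmb11, which are known from testis and thymus, the 31 subunits of core and regulatory particle had mean levels over the 8 libraries between 46.4 RPKM (Psmc2) and 203.5 RPKM (Psmb3), a 4.39-fold range, with a median of 105 RPKM. Ranked by mean level among genes tested, they lay between percentiles 84.8 and 96.9. RPKM is scaled to gene length, but the unit is inferred and the lengths used are not known, so comparisons of level between genes are approximate.

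**Figure D1:**
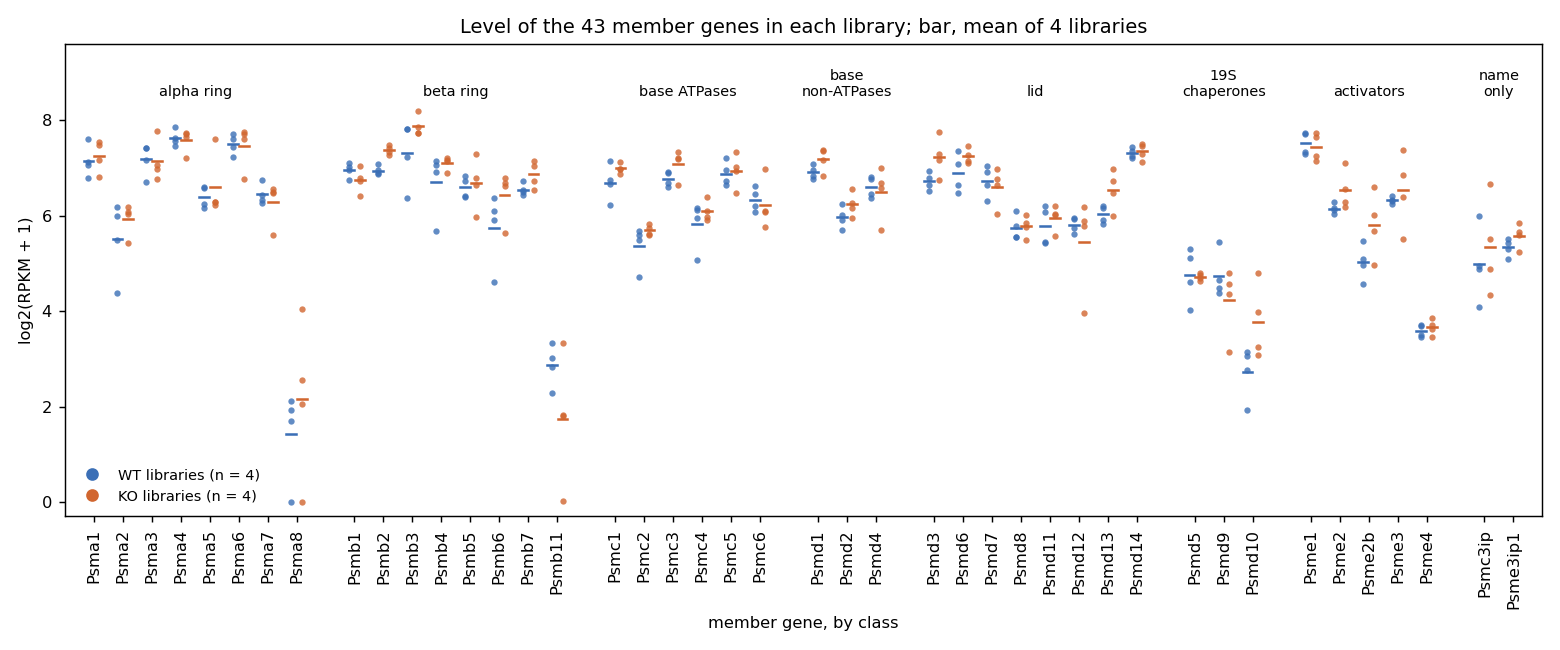
Each point is the log2(RPKM + 1) of a member gene in a library, with WT in blue and KO in orange (n = 4 each), genes grouped by class on the x axis, and a bar at the mean of each group. Most core and regulatory particle genes lie between 5 and 8 on this scale in both genotypes, whereas Psma8, Psmb11, Psmd10 and Psme4 lie lower.

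The order of these 31 subunits by level was similar in the 2 genotypes: the log2 of the group means correlated across genes with a Pearson r of 0.929. Between single libraries the r over the same 31 genes was lowest for WT2 with KO3 (0.480) and highest for KO1 with KO2 (0.944), with a median of 0.758 over 28 pairs of libraries. Genes are not independent replicates, and all points share the length by which their reads were divided, so these values are a description. Among pairs without KO3 and WT2 the lowest r was 0.741.

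Promoter letters were read for 36 of the 43 genes, whose sequences RefSeq gives on build GRCm38.p6. Psma8, Psmb1, Psmb2, Psmb7, Psmc3, Psmd3 and Psmd7 had no entry. In the 250 bases before each start, 4 motifs were searched on both strands. The antioxidant response element TGACNNNGC is the letter pattern bound by NFE2L1 and NFE2L2, factors known to drive proteasome genes. The others were the CCAAT box CCAAT of NF-Y, the ETS pattern CCGGAAG and the pattern of nuclear respiratory factor 1, GC-rich letters on either side of a variable base. A gene was counted when any of its promoters held a match. ETS letters were in 8 of 14 regulatory particle genes (57.1%), 1 of 12 core genes (8.33%) and 2 of 5 activators. The shares were 16.8% of 8979 genes tested that have an entry and 7.83% of all 27025 genes with an entry. CCAAT letters were in 7 of 12 core genes (58.3%) and 4 of 14 regulatory particle genes (28.6%), against 41.0% of genes tested and 37.5% of all genes with an entry. Antioxidant response element letters were in 5 of the 36 genes (13.9%), the same share as in genes tested (13.9%), and in 11.5% of all genes with an entry. The pattern of nuclear respiratory factor 1 was in 6 of 36 genes (16.7%), 9.91% of genes tested and 4.23% of all genes with an entry. No test was made of these shares, and a match is a run of letters, not a binding site.

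The following stretches show such letters in 5 genes that represent the core and the base of the regulatory particle, each with its values in every library in the paragraphs on its class, 5′ to 3′ on the strand of the gene, with the match in capitals. They are the catalytic core genes Psmb5 (chr14:54618008-54618067, minus strand) and Psmb6 (chr11:70525297-70525356, plus strand) with the antioxidant response element, the regulatory particle genes Psmc1 (chr12:100110142-100110201, plus strand) and Psmd2 (chr16:20651592-20651651, plus strand) with ETS letters on the opposite strand, and the alpha ring gene Psma2 (chr13:14613090-14613149, plus strand) with the nuclear respiratory factor 1 pattern.
Psmb5: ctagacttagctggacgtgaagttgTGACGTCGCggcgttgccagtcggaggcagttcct
Psmb6: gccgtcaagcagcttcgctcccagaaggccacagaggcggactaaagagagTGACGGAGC
Psmc1: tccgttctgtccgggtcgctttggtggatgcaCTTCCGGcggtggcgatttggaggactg
Psmd2: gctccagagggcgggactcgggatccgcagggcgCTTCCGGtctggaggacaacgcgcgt
Psma2: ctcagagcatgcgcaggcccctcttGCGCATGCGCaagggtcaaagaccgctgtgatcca

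Across genotypes no proteasome gene passed the test. Of 43 genes, 0 had a limma adjusted p under 0.05, as had 0 of all 11276 genes (0%). With weights for each library limma called 164 genes (1.45%, with 0.594% higher and 0.860% lower in KO), and again 0 of the 43. The weight was 6.503 for KO2, 0.137 for KO3 and 0.3509 for KO4, and the highest of any other library was 2.019 (WT3). The KO side of the weighted fit therefore leans mostly on KO2 and hardly on KO3. In the main fit, without weights, 4 of 43 had an unadjusted p under 0.05, all higher in KO: Psmb2, Psmd3, Psmd13 and Psme2b. Of all genes, 2.77% were higher and 4.74% lower at that p. The count was 2 of 43 without WT1, WT2, WT4 or KO1, and 7 of 43 without KO4. The share of all genes at that p also moves with the setting (7.51% in the main fit, 17.7% with library weights). It is not given for the fits without 1 library, so their counts cannot be set beside it. With library weights there were 10 of 43 at that p, where 8.13% of all genes were higher and 9.55% lower. The groups did not overlap in 1 of 43 (Psmb2, KO above WT), beside 2.05% of all genes with KO above WT and 3.88% with KO below it. The adjusted p of the 43 genes ran from 0.604 to 0.977.

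Most members had positive log2 differences nonetheless. They were positive in 30 of 43 (69.8%), beside 39.0% of all genes tested and 48.7% of the 3934 genes with a mean above 20 RPKM. The median difference was 0.21, beside -0.14 for all genes and -0.01 for genes above 20 RPKM, so the median member lay 0.34 above that of all genes tested. The count depends on how the libraries are scaled: it was 27 of 43 with quantile normalization, where 50.0% of all genes were positive, and 35 of 43 (81.4%) with each library centred on its median, where 47.3% of all genes and 60.6% of genes above 20 RPKM were positive. It was 33 of 43 without WT2, KO3 and KO4 (45.6% of all genes) and 35 of 43 in lane 4 alone (48.7% of all genes). Without WT2 the median member difference was 0.11. The standard errors of the 43 differences ranged from 0.14 to 0.85, with a median of 0.24, so for most members a difference of the size of the median could not be told from 0.

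**Figure D2:**
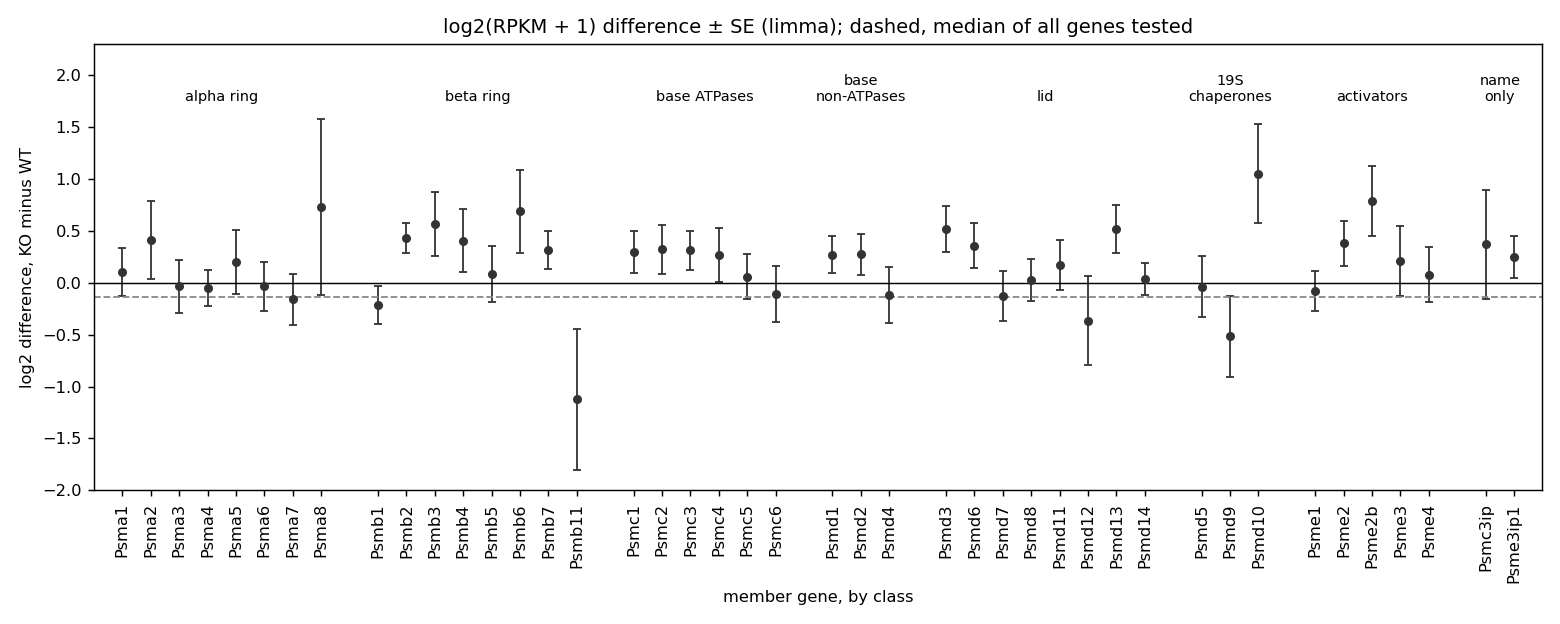
Each point is the log2 difference (KO minus WT) of a member gene with its standard error from limma, grouped by class on the x axis. The solid line marks 0 and the dashed line the median of all genes tested (-0.14). Of the 43 points 30 lie above 0, and those of Psma8 and Psmb11 have the longest bars.

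Single libraries also stood out within the groups. KO1 held the highest value of the 8 libraries in 16 of the 43 genes and the lowest in 0. WT2 held the lowest value in 14 genes and the highest in 2. KO3 was split, with the lowest value in 11 genes and the highest in 6. KO2 held an extreme in 2 genes, the highest in 1 and the lowest in 1.

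**Figure D3:**
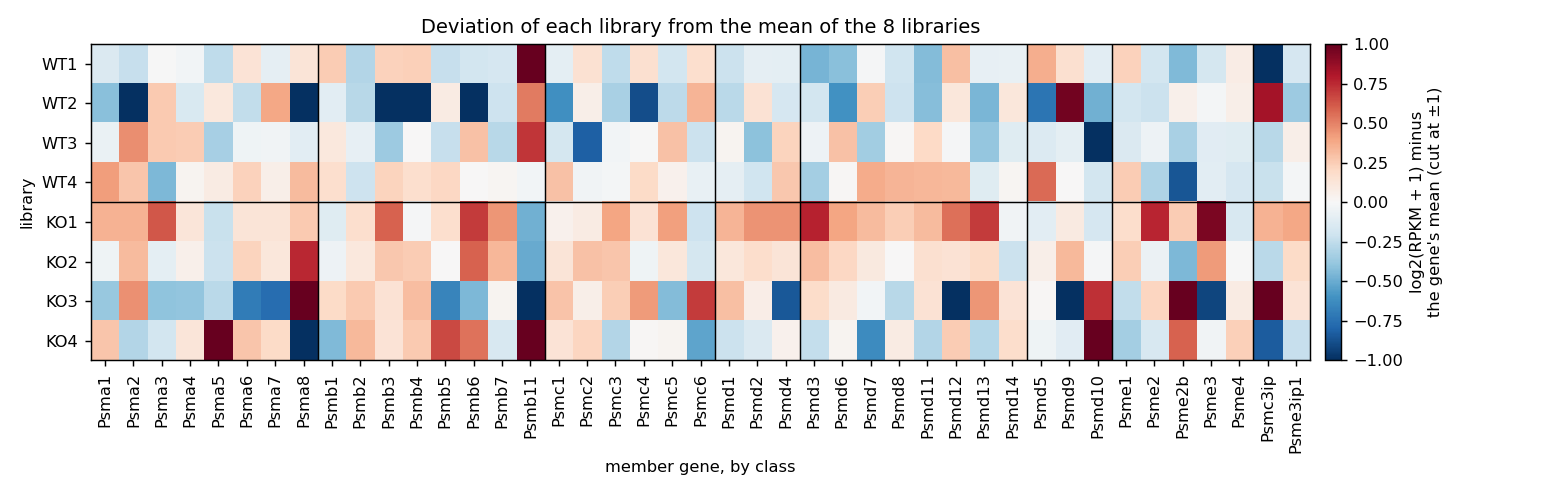
Colours give the log2(RPKM + 1) of each gene in a library minus that gene's mean over the 8 libraries, from blue (lower) to red (higher), cut at 1 in either direction. KO1 is above the mean in most genes, WT2 is far below it in Psma2, Psmb3, Psmb4 and Psmb6, and KO3 is below it in most alpha ring genes.

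The alpha ring, whose subunits form the gate of the barrel, had 4 of 8 positive differences and a median of 0.04. The split depended on scaling and libraries: 7 of 8 were positive with median centring and in lane 4 alone, and 8 of 8 without KO3. The median was -0.05 with quantile normalization and -0.04 without KO1 or KO4. Psma4 and Psma6 were the most abundant, at 198 ± 24.0 and 181 ± 25.8 RPKM in WT libraries and 192 ± 30.4 and 182 ± 49.3 in KO. Psma3 and Psma1 followed at 147 ± 31.8 and 144 ± 36.7 RPKM in WT libraries and 146 ± 49.8 and 154 ± 34.2 in KO. Psma7 was at 87.0 ± 13.7 and 79.7 ± 21.4 RPKM, and Psma5 at 84.3 ± 13.2 and 105 ± 58.8. The members of smallest p were Psma2 and Psma8. Psma2 was at 44.3, 20.0, 72.2 and 63.1 RPKM in WT libraries and at 66.3, 64.9, 71.6 and 42.3 in KO. WT2 was the lowest, and the other values overlapped (log2 difference 0.41 ± 0.37, adjusted p = 0.776). Psma8, an alpha subunit of germ cells that is a close relative of Psma7, was at 2.80, 0, 2.25 and 3.34 RPKM in WT libraries and at 3.18, 4.88, 15.5 and 0 in KO, listed at 0 in WT2 and KO4 and highest in KO3 (0.73 ± 0.85, adjusted p = 0.817). Its reads may be split with that relative.

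The beta ring, which holds the proteolytic sites, had 6 of 8 positive differences and a median of 0.36. The 2 negative ones were Psmb1, at 124 ± 12.9 RPKM in WT libraries and 108 ± 19.4 in KO, and Psmb11. Psmb2, a structural beta subunit, separated the groups: it was at 115.8, 117, 134 and 123 RPKM in WT libraries and at 159.9, 154, 171 and 178 in KO. The lowest KO library was above the highest WT library, and the difference of 0.43 ± 0.14 was the one with the smallest p of the 43 (adjusted p = 0.604). Psmb3 was at 226, 81.7, 149 and 225 RPKM in WT libraries and at 290.4, 232, 213 and 212 in KO, so the groups overlapped through WT1 and WT4 (0.57 ± 0.31, adjusted p = 0.688). Psmb4 was at 111 ± 41.3 RPKM in WT, with WT2 at 50.2, and at 137 ± 13.0 in KO. Psmb11, the beta subunit of thymic cortical epithelium, was at 9.11, 6.06, 7.10 and 3.85 RPKM in WT libraries and at 2.52, 2.48, 0.0104 and 9.01 in KO.

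All 3 genes of the catalytic sites had overlapping groups. Psmb5, which encodes the chymotrypsin-like site, was at 83.9, 104, 83.5 and 114 RPKM in WT libraries and at 110.4, 98.8, 61.8 and 156 in KO, with both the lowest and the highest value in KO (0.09 ± 0.27, adjusted p = 0.943). Psmb6, the caspase-like site, was at 59.1, 23.3, 82.4 and 67.2 RPKM in WT libraries and at 109, 101, 48.8 and 98.0 in KO; KO1, KO2 and KO4 were above every WT library and KO3 was below 3 of them (0.69 ± 0.40, adjusted p = 0.696). Psmb7, the trypsin-like site, was at 91.9, 89.5, 85.3 and 105 RPKM in WT libraries and at 141, 131, 106 and 92.5 in KO, where KO4 fell within the WT range (0.32 ± 0.18, adjusted p = 0.696). Without KO4 the difference of Psmb5 was -0.12.

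Their immunoproteasome counterparts were expressed in these cells too. Psmb8 was at 222 ± 29.8 RPKM in WT libraries and 217 ± 46.5 in KO, more than its counterpart Psmb5 in every library: the ratio of Psmb5 to Psmb8 was 0.368 to 0.488 in WT and 0.350 to 0.782 in KO. Psmb9 was at 54.8 ± 10.9 and 48.5 ± 30.6 RPKM and Psmb10 at 49.1 ± 15.1 and 45.3 ± 17.8. The ratio of Psmb6 to Psmb9 was 0.492 to 1.73 in WT and 0.564 to 6.11 in KO, and that of Psmb7 to Psmb10 was 1.61 to 3.11 and 2.07 to 4.92. The 3 ratios overlapped between groups, and each was highest in KO4.

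The ATPases of the base, a ring of motors that unfolds substrates, had 5 of 6 positive differences and a median of 0.28. Psmc1 was at 106, 74.0, 101 and 139.9 RPKM in WT libraries and at 117, 124, 139 and 126 in KO, all within the WT range (0.30 ± 0.20, adjusted p = 0.726). Psmc3 was at 101, 96.7, 119 and 119 RPKM in WT libraries and at 159.6, 147, 144 and 98.5 in KO, where KO1 to KO3 were above every WT library and KO4 was not (0.31 ± 0.19, adjusted p = 0.704). Psmc2, the least abundant, was at 41.8 ± 11.3 RPKM in WT libraries and 50.9 ± 3.97 in KO, and Psmc4 at 58.2 ± 17.4 and 68.1 ± 10.5. Psmc5 was at 119 ± 21.2 and 125 ± 29.4 RPKM. Psmc6, the negative one, was at 80.9 ± 14.0 and 78.4 ± 32.2 RPKM.

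Of the other base genes, Psmd1 and Psmd2 encode the large scaffold subunits. Psmd1 was at 113, 109, 134 and 123 RPKM in WT libraries and at 166, 142, 162 and 113 in KO (0.27 ± 0.17, adjusted p = 0.714). Psmd2 was at 63.7, 75.2, 50.8 and 59.0 RPKM in WT libraries and at 93.0, 76.6, 71.1 and 61.1 in KO (0.27 ± 0.20, adjusted p = 0.735). KO4 lay among the WT libraries in both genes, and in Psmd2 so did KO3. Psmd4, a ubiquitin receptor, was at 97.1 ± 14.9 RPKM in WT libraries and 93.5 ± 31.4 in KO, with the lowest value in KO3 at 51.0.

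The lid had 6 of 8 positive differences and a median of 0.10. Psmd3, a scaffold subunit of the lid, was at 90.6, 110.2, 121 and 99.0 RPKM in WT libraries and at 214, 156, 143 and 106 in KO; KO1 to KO3 were above every WT library and KO4 was not (0.52 ± 0.22, adjusted p = 0.645). Psmd13 was at 73.0, 56.2, 59.0 and 71.0 RPKM in WT libraries and at 126, 88.5, 105 and 63.1 in KO, with the same arrangement (0.52 ± 0.23, adjusted p = 0.655). Psmd14, the deubiquitinase of the lid and its most abundant gene, was at 159 ± 11.4 RPKM in WT libraries and 163 ± 19.9 in KO. Psmd6 was at 121 ± 34.4 and 152 ± 17.7 RPKM and Psmd7, the structural partner of Psmd14, at 107 ± 22.7 and 99.0 ± 25.5. Psmd11 was at 56.0 ± 15.9 and 62.0 ± 10.7 RPKM, and Psmd8 at 53.5 ± 10.2 and 54.3 ± 8.20. Psmd12 was at 55.6 ± 6.23 and 49.6 ± 24.6 RPKM, with KO3 at 14.5 and the other KO libraries at 53.8 to 71.8.

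The assembly chaperones of the regulatory particle were less abundant, with 1 of 3 differences positive and a median of -0.04. Psmd10, also called gankyrin, was at 7.88, 5.85, 2.78 and 7.41 RPKM in WT libraries and at 7.51, 8.47, 14.8 and 27.0 in KO. KO4 and KO3, the lane 5 libraries, were the highest, and KO1 lay below WT1 (1.05 ± 0.48, adjusted p = 0.665); in lane 4 alone the difference was 0.44. Psmd9 was at 24.0, 42.8, 19.9 and 21.4 RPKM in WT libraries and at 22.8, 26.9, 7.90 and 19.7 in KO, with the highest value in WT2 and the lowest in KO3 (-0.52 ± 0.39, adjusted p = 0.743). Its difference was 0.18 without WT2, KO3 and KO4. Psmd5 was at 27.7 ± 10.5 and 25.5 ± 1.27 RPKM.

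Of the activators 4 of 5 had positive differences. Psme1 and Psme2 encode the alpha and beta subunits of PA28, which joins the immunoproteasome in antigen processing. Psme1 was the most abundant activator, at 209.6, 157, 161 and 213 RPKM in WT libraries and at 201, 212, 151 and 141 in KO (-0.08 ± 0.20, adjusted p = 0.921). The groups overlapped, and the sign turned when each library was centred on its median (0.02), without KO4 (0.02) and in lane 4 alone (0.17). Psme2 was at 70.3, 68.9, 77.3 and 64.5 RPKM in WT libraries and at 137, 76.9, 93.0 and 71.4 in KO, where KO1 and KO3 were the highest (0.38 ± 0.22, adjusted p = 0.696). Psme2b, a near-identical copy of Psme2 with which it may share reads, was at 30.5, 43.2, 33.2 and 22.7 RPKM in WT libraries and at 50.0, 30.4, 95.9 and 63.5 in KO (0.79 ± 0.34, adjusted p = 0.647). KO1, KO3 and KO4 were above every WT library and KO2 was not.

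Psme3 encodes the nuclear activator PA28γ. It was tight in WT, at 75.1, 83.7, 78.4 and 79.0 RPKM, and wide in KO, at 164.5, 114, 44.4 and 83.0, with both extremes in KO (0.21 ± 0.34, adjusted p = 0.874); without KO1 the difference was -0.07. Psme4, which encodes PA200, was the least abundant activator and varied little, at 12.02, 11.8, 10.3 and 9.998 RPKM in WT libraries and at 10.03, 11.3, 12.1 and 13.5 in KO (0.08 ± 0.27, adjusted p = 0.948; -0.04 in lane 4 alone). Of the genes that match by name alone, Psmc3ip was at 16.04, 62.9, 28.6 and 29.8 RPKM in WT libraries and at 44.6, 28.7, 100.4 and 19.1 in KO (0.37 ± 0.52, adjusted p = 0.850; -0.07 without KO3). Psme3ip1 was at 38.2, 33.2, 44.9 and 42.4 RPKM in WT libraries and at 56.4, 49.3, 47.4 and 36.6 in KO (0.24 ± 0.20, adjusted p = 0.758). The groups of both genes overlapped.

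Core, regulatory particle and activators were then compared by their medians. The median log2 difference was 0.15 in the core (10 of 16 positive), 0.27 in the regulatory particle (13 of 17) and 0.21 in the activators (4 of 5), so it lay 0.29, 0.41 and 0.34 above that of all genes tested. With quantile normalization it lay 0.09, 0.19 and 0.19 above it, and 10 of 17 regulatory particle genes were positive. Without WT2, KO3 and KO4 it lay 0.21, 0.26 and 0.50 above it. Single libraries moved the medians: that of the core was 0.06 without WT2, 0.03 without KO4, 0.26 without WT4 and 0.28 without KO3, that of the regulatory particle 0.07 without WT2 and 0.17 without KO1, and that of the activators 0.10 without KO2 and 0.37 without KO3. The order of the classes was therefore not stable (without KO3 the core, at 0.28, lay above the regulatory particle, at 0.21), and no difference between classes was tested.

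A level for each class in each library was taken as the mean log2(RPKM + 1) of its members minus the mean of all genes tested. The WT libraries had core levels of 2.42, 2.14, 2.41 and 2.46 and the KO libraries of 2.69, 2.52, 2.85 and 2.75. For the regulatory particle the WT levels were 2.49, 2.58, 2.49 and 2.64 and the KO levels 3.004, 2.70, 3.21 and 2.73. In both classes every KO library was above every WT library on this scale, with the highest level in KO3. For the activators the WT levels were 1.90, 2.12, 1.83 and 1.73 and those of KO 2.49, 2.02, 2.68 and 2.29, where KO2 was below WT2. The regulatory particle minus the core was 0.19 ± 0.18 in WT and 0.21 ± 0.17 in KO (SD, n = 4), with overlap, but the sign rests on Psma8 and Psmb11: without these 2 core genes it was -0.38 ± 0.14 and -0.42 ± 0.20.

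These separations depend on the reference. The mean of all genes tested was 3.24 in KO3 and 3.63 in KO4, the libraries that listed most genes at 0, against 3.68 to 3.89 in the other 6, and a low mean raises the class level. With no reference subtracted, the core was at 5.81 to 6.35 in WT and 6.09 to 6.45 in KO and the regulatory particle at 6.26 to 6.54 and 6.36 to 6.77, and both overlapped. The activators, at 5.62 to 5.80 in WT and 5.89 to 6.25 in KO, then did not overlap. In KO3, however, Psme1 (151 RPKM) and Psme3 (44.4 RPKM) were below every WT library, and in KO4 so was Psme1 (141 RPKM). The places of KO3 and KO4 therefore lean on Psme2b, at 95.9 and 63.5 RPKM there, which may share reads with Psme2. An activator level without Psme2b was not computed, so no separation is shown for the class without that gene. Against genes with a mean above 20 RPKM the core was separate and the other 2 classes overlapped. The difference between genotypes was 0.34, 0.36 and 0.47 for core, regulatory particle and activators against all genes, 0.20, 0.21 and 0.32 against genes above 20 RPKM, and 0.15, 0.16 and 0.27 with no reference.

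**Figure D4:**
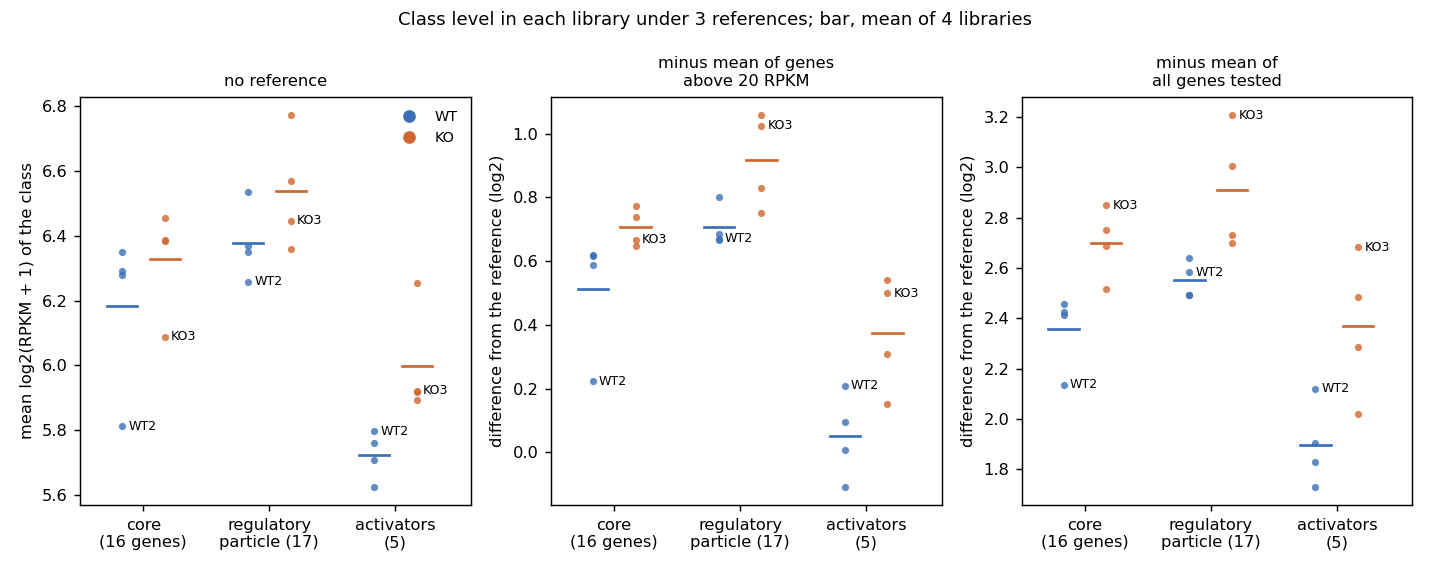
Points give the mean log2(RPKM + 1) of each class in each library, with no reference (left), minus the mean of genes above 20 RPKM (middle) and minus the mean of all genes tested (right); bars are means of 4 WT (blue) or 4 KO (orange) libraries. The KO means lie above the WT means in every panel, while KO3 moves from the lowest core level of KO on the left to the highest on the right.

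Markers of myeloid progenitors summed to higher levels in KO libraries. Of 12 genes of granulocyte-monocyte progenitors, all tested, 12 had positive differences (0 passed the limma test after adjustment, 9 had an unadjusted p under 0.05). Their summed level was 1677 to 3222 RPKM in WT libraries and 3410.2 to 11213 in KO, highest in KO1. Calr and Mpo weigh most in this sum, with means of 1580 and 1468 RPKM over the 8 libraries. As a class level minus all genes tested, the list overlapped between groups, with KO4 at 1.79 below WT4 at 1.87. Of all genes tested, 39.0% had positive differences and 2.77% were higher in KO at an unadjusted p under 0.05 (limma). None of the 12 progenitor genes was at 0 in all libraries. Of 7 genes of mature neutrophils and monocytes, 3 were tested and the sum was 1.15 to 12.8 RPKM in WT libraries and 23.0 to 173 in KO. Different genes made up most of it: Lcn2 in KO1 (142 RPKM), Itgam in KO3 (22.8 RPKM) and S100a9 in KO4 (35.7 RPKM). Itgam was higher in every KO library than in any WT library. The class level of the 3 tested genes overlapped, with KO3 at -1.69 below WT4 at -1.66. Of 7 stem and progenitor genes, 0 had a positive difference: the gate genes Kit and Ly6a with Cd34, Flt3, Slamf1, Cd48 and Procr. Their sums were 557 to 618 RPKM in WT libraries and 424 to 514 in KO. The groups did not overlap in Flt3 alone (KO below WT, as in 3.88% of all genes tested), while Kit and Ly6a overlapped. Proliferation genes were positive in 5 of 10, with sums of 922 to 1073 and 976 to 1139.9 RPKM. The part of any of these in the member differences was not tested. In such bulk libraries, a shift in the kinds of cells and a change of RNA per cell cannot be told apart.

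Other genes of the pathway came from 4 lists, and 0 of 42 passed the limma test in either direction. At an unadjusted p under 0.05 there were 4 of the 42, beside 7.51% of all genes tested. Assembly factors of the core and the inhibitor Psmf1 had 2 of 6 positive differences, with a median of -0.15. Of these, Pomp, the chaperone that closes the nascent core, was at 94.7 ± 23.3 RPKM in WT libraries and 79.3 ± 8.30 in KO, and Psmg4 at 48.7 ± 11.2 and 50.4 ± 35.9. Proteins bound to the proteasome were positive in 5 of 7, with a median of 0.18. Among them Sem1, a small lid subunit outside the naming rule, was at 216 ± 56.8 and 263 ± 113 RPKM, and the ubiquitin receptor gene Adrm1 at 51.7 ± 15.4 and 63.6 ± 20.7.

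Ubiquitin genes and shuttle factors had 3 of 14 positive differences and a median of -0.13, close to that of all genes. The polyubiquitin gene Ubb was at 3354 ± 317 RPKM in WT libraries and 3229.5 ± 234 in KO, and Rps27a, which encodes ubiquitin fused to a ribosomal protein, at 1499.6 ± 72.1 and 1239 ± 110.5. Regulators of proteasome genes were positive in 7 of 15, with a median of -0.07. Nfe2l2, which encodes NRF2, a factor that drives antioxidant and proteasome genes, was at 49.6, 48.4, 41.7 and 46.5 RPKM in WT libraries and at 25.0, 31.7, 25.5 and 26.2 in KO. All KO values were below all WT values (log2 difference -0.76 ± 0.18, limma adjusted p = 0.441), as in 3.88% of all genes tested. Rps27a had the same arrangement, with the lowest WT library at 1402 RPKM and the highest KO library at 1335. Nfya, a subunit of NF-Y, was at 46.9 ± 11.3 and 55.8 ± 14.3 RPKM. The related gene Nfe2l1, chosen after its values were seen, was at 20.4, 19.6, 22.3 and 19.6 RPKM in WT libraries and at 28.9, 24.3, 62.7 and 17.7 in KO, and the groups overlapped.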

How the data were processed

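Poly(A) RNA of LSK cells from 4 WT and 4 KO libraries was sequenced on an Illumina HiSeq, per the labels' protocols, which name both a paired-end and a single-read flow cell. The submitters' processing notes name TopHat, edgeR and the mm9 build; versions, annotation, counting and strand use were not given in the sources used here. Deposited values were taken as RPKM, since the authors' tables hold decimals per gene and, multiplied by the length of the longest transcript of each gene in kilobases, each library sums to between 1142000 and 1171000. Depth was inferred from steps between values of at most 0.2 RPKM, where 51.1% to 61.3% of 49 to 95 values per library were whole reads within 0.03 reads, so it is approximate and no reads were recovered. No interval or floor was computed. Gene identifiers were matched to symbols for 24029 of 24112 genes (99.7%).

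Values were log2-transformed after adding 1. The 11276 genes that reached 1 RPKM in 4 or more libraries were fitted with limma 3.58.1 in R 4.3.3 (trended, robust variance), WT against KO, with Benjamini-Hochberg adjustment over all genes tested and a threshold of 0.05. The script was tested on simulated data. Standard errors come from that fit; ± after a mean level is the SD over 4 libraries. Members and gene lists were chosen with earlier results of these data known. Every member is named with its level; differences are printed for the 2 of smallest p in each class, the catalytic beta genes, Psme1 to Psme4 and members whose groups do not overlap, and pathway lists are shown by their 2 most abundant genes. Alternatives were no filter on low values, only genes with a mean above 20 RPKM, a pseudocount of 0.1, quantile normalization, median centring and library weights. Others were lane as a covariate, lane 4 alone, a replicate block, leaving out WT2, KO3 and KO4, and leaving out each library. The reference of the class level was varied after seeing the data. Promoter sequences are RefSeq's on GRCm38.p6 and were searched for letters only.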

Additional observations from a re-analysis of the deposited data

Results flagged for a closer look

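In 94 groups of 4 libraries (WT or KO, for each member and each class level) 4 had a library far from its group; chance flags about 1 in 20 groups. Psma4 was at 147 RPKM in KO3, where the nearest KO library, KO2, was at 200.4. Psma7 was at 47.7 RPKM in KO3, again below KO2 at 88.4. Psma5 was at 194 RPKM in KO4, above KO2 at 77.1. The level of the core minus all genes tested was 2.14 in WT2, below WT3 at 2.41. Of these 4 values, 2 lay in KO3, 1 in KO4 and 1 in WT2, the libraries that listed the fewest genes above 0.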

How the results depend on the processing

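The number of genes with an adjusted p under 0.05 was 0, and 164 with library weights, 2 in lane 4 alone, 3 without WT2, KO3 and KO4, and 0 to 2 when 1 library was left out (2 without KO3); the number of members was 0 throughout. At an unadjusted p under 0.05 there were 4 of 43 members (9.30%; 7.51% of all genes), against 10 with library weights (23.3%; 17.7%), 8 without WT2, KO3 and KO4 (18.6%; 14.0%), 6 with median centring (14.0%; 7.83%), 6 in lane 4 alone (14.0%; 10.99%), 2 with quantile normalization (4.65%; 7.73%) and 2 to 7 with 1 library left out. For the fits with 1 library left out the share of all genes is not given, so their counts cannot be set beside it. Same-numbered libraries of the 2 groups did not deviate together (r = -0.05, -0.08, -0.04 and -0.06). Paired libraries need not share such deviations, so whether the numbers pair them stays unknown. With a replicate block 0 genes and 0 members passed the limma test, and 30 of 43 differences were positive. In that fit 1 member (2.33%, beside 6.25% of all genes) had an unadjusted p under 0.05. The median member difference minus that of all genes fell to 0.085 in the core, 0.19 in the regulatory particle and 0.19 over all members with quantile normalization, and to 0.16 in the regulatory particle and 0.18 over all members with library weights. The class level, KO minus WT, with no reference was 0.15 in the core, 0.16 in the regulatory particle and 0.17 over all members, and against genes above 20 RPKM it was 0.20 in the core; the references were chosen after seeing the data. For 23 named genes, 410 values were recomputed over 18 settings: 395 kept direction and side of the threshold, 1 (Traf6 with library weights) passed it and 14 changed sign. Psme1 became 0.025 with median centring, 0.14 with weights, 0.17 with lane as a covariate and in lane 4 alone, 0.10 without WT2, KO3 and KO4, and ran from -0.176 to 0.0198 when 1 library was left out. Psmd9 became 0.15 with weights and 0.18 without WT2, KO3 and KO4. Psme4 became -0.044 with lane as a covariate and in lane 4 alone and -0.012 without WT2, KO3 and KO4. With 1 library left out, Psme3 ran from -0.073 (without KO1) to 0.55, Psmc3ip from -0.068 (without KO3) to 0.71 and Psmb5 from -0.12 (without KO4) to 0.32. The cause of these shifts was not tested. Values with library weights lean mostly on KO2 on the KO side (weight 6.503). With 4 libraries a group, the spread between libraries limits the precision of every difference; how depth bears on it was not tested.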
